A study of Homo sapiens with 32 samples.

Results

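The miRNA profile of 293T cells carrying a non-targeting short hairpin RNA (shRNA) was described in the 16 libraries of the series that received such a control vector, out of 32 libraries in all. The libraries were chosen by treatment label alone: control shRNA 1 or control shRNA 2 in each of 8 clones. 293T cells descend from human embryonic kidney and express the large T antigen of SV40; the labels call them epithelial-like kidney cells and give the collection number CRL-3216. Clones 52, 55, 57 and 67 were wild type at DGCR8, and clones 30, 34, 42 and 43 carried the deletion DGCR8 delta103-126, made by prime editing, which takes out the segment reported to bind the small nuclear protein ERH. DGCR8 is the RNA-binding partner of DROSHA in the Microprocessor, the enzyme that cuts miRNA hairpins from primary transcripts. All cells were transfected transiently, kept in 2 µg/ml puromycin from 24 h on, and sorted on day 5 for the vector's fluorescent marker, so both control groups share these steps. Each line is a single clone, each clone gave 1 library per vector, and no untransfected cells were analysed here. The other 16 libraries, from the same clones with 2 shRNAs against ERH, were used only as a second pair of vectors and to see whether a clone's pattern recurred. ERH and DGCR8 RNA are not among the measured rows, so the labels were not checked against them.

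A miRNA acts as part of an Argonaute complex that binds messenger RNAs mainly through the seed, bases 2 to 8 of the mature strand, and lowers their translation and stability. miRNAs with the same seed form a family with overlapping targets, and many lie in clusters that are transcribed as 1 primary RNA. A vector-borne shRNA also passes through Dicer and Argonaute.

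The families that made up most of the counts are shown by the mature strands that carry their seeds, 5′ to 3′, with bases 2 to 8 in capitals (RefSeq, GRCh38.p14). In the deposited table both strands of a hairpin shared a row, so the counts below are per hairpin name and not per strand. The strands of the mir-15/mir-16 family, known to restrain the cell cycle, share 1 seed.
miR-16-5p: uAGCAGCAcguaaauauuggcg
miR-15a-5p: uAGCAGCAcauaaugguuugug
miR-15b-5p: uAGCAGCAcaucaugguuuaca
miR-195-5p: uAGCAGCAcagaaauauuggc
The next 3 families, with 3 seeds, are fed by the MIR17HG cluster on chromosome 13, a MYC target known to promote growth, and by its relatives on chromosomes 7 and X.
miR-92a-3p: uAUUGCACuugucccggccugu
miR-25-3p: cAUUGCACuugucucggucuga
miR-17-5p: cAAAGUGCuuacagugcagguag
miR-20a-5p: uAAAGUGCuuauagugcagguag
miR-93-5p: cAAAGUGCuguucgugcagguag
miR-19a-3p: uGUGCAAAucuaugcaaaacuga
miR-19b-3p: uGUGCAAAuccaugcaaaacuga
Next in abundance came families for which the leading strands are these.
miR-30e-5p: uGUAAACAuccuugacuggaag
miR-103a-3p: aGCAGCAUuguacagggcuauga
miR-107: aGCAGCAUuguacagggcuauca
miR-10a-5p: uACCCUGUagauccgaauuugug
miR-221-3p: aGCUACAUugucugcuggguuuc
miR-148a-3p: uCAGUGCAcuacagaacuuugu
let-7a-5p: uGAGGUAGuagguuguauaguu

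The 16 control libraries held between 1789085 and 2818603 miRNA counts (median 2395713) and between 11865 and 31390 spike-in counts. Of 1513 miRNA rows, 475 had a count in every control library, 1168 in at least 1, and 345 were at 0 in all 16. Over 37847453 counts together, 3 counts correspond to 0.0793 CPM (counts per 1000000 miRNA counts), the highest level that a row without a count allows over the 16 libraries. Amplification copies may be among the counts, so such limits cover counting error only. Chi-square values per degree of freedom were at least 39.6 between the 2 control libraries of a clone and at least 90.7 between libraries of a group, so none was treated as a copy of another. Log2 levels of the 246 rows with a mean of at least 100 counts correlated across rows at r of 0.978 to 0.997 between the 2 control libraries of a clone. Between clones of the same genotype r was 0.946 to 0.984, and between genotypes 0.925 to 0.973. In 16 of 16 libraries the closest other library was the other one of the same clone.

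Few hairpins supplied most of the miRNA counts. A median of 56.2% of miRNA counts fell on the 10 most abundant rows (51.9 to 59.3%), between 7 and 9 rows made up 50 percent, and between 49 and 61 rows made up 90 percent of a library. The 20 rows with a median share of at least 1% held 69.1% in sum, while 770 rows had a median of 0. The mir-15/mir-16/mir-195/mir-424/mir-497 family ranked first with a median of 18.2% and a range of 15.6 to 20.4%. The mir-25/mir-32/mir-92/mir-363/mir-367 family followed at 10.9% (7.23 to 14.99%) and the mir-17/mir-20/mir-93/mir-106 family at 10.9% (8.88 to 13.5%). The mir-19 family took 7.30% (3.86 to 10.8%). The families mir-30 (4.33%), mir-103/mir-107 (4.18%), mir-10 (3.94%), mir-221/mir-222 (3.19%), mir-148/mir-152 (3.06%), let-7/mir-98 (2.82%), mir-101 (2.00%) and mir-218 (1.85%) completed the first 12. The range of the first family did not overlap that of the second. The ranges of all later neighbours overlapped. Within libraries, the mir-17/mir-20/mir-93/mir-106 family exceeded the mir-19 family in 15 of 16, and the mir-19 family exceeded the mir-30 family in 15 of 16, and both orders held for the means of all 8 clones. The let-7/mir-98 family exceeded the mir-101 family in 15 of 16 libraries and 7 of 8 clones, while the other neighbours changed places in at least 4 libraries.

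**Figure D1:**
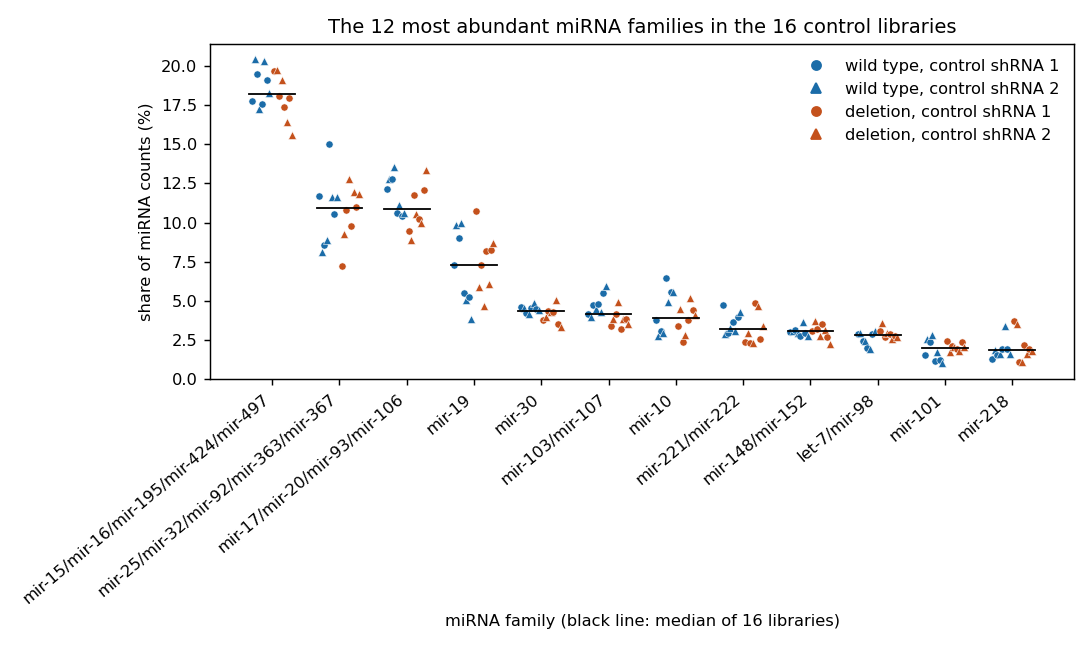
Share of miRNA counts (percent, vertical axis) of the 12 most abundant families, with 1 point per control library, circles for control shRNA 1 and triangles for control shRNA 2, blue for wild-type and orange for deletion clones, and a black line at the median of 16. The mir-15/mir-16/mir-195/mir-424/mir-497 points lie between 15.6 and 20.4%, above every point of the other families, and the mir-19 points spread from 3.86 to 10.8%.

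Within the leading family a single row carried nearly everything. The row mir-16, fed by MIR16-1 in an intron of DLEU2 (chromosome 13, 50048973 to 50049061) and MIR16-2 in an intron of SMC4 (chromosome 3, 160404745 to 160404825, GRCh38), was the most abundant row in every control library, at a median of 17.1% (14.5 to 19.5%). Its median was 94.0% of the summed medians of the family's rows, and percentages of a family below are on this measure. Its cluster partners were far lower, mir-15b at 0.60% and mir-15a at 0.30%, although miR-15a-5p, miR-15b-5p and miR-16-5p share the seed printed above. The families fed by several loci were more even. Rows mir-92a (6.26%) and mir-25 (4.00%) made up 60.5 and 38.7% of their family, and mir-20a (5.24%), mir-93 (5.04%) and mir-17 (0.89%) made up 46.3, 44.5 and 7.82% of theirs. In the mir-19 family, mir-19b (5.53%) held 75.7% and mir-19a (1.78%) 24.3%. The rows mir-103a (3.92%), mir-10a (3.14%), mir-221 (2.74%), mir-101 (2.00%) and mir-218 (1.85%) led the families after these.

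Summed over its 6 rows, the MIR17HG list (mir-17, mir-18a, mir-19a, mir-19b, mir-20a and mir-92a) had a median of 204196 CPM and a range of 158051 to 253780 CPM. The rows mir-19b and mir-92a are also fed by copies on chromosome X (MIR19B2 and MIR92A2), so the sum is an upper value for the chromosome 13 cluster. The HOX-embedded rows mir-10a, mir-10b, mir-196a and mir-196b, which lie within the HOX gene clusters, summed to a median of 56158 CPM.

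The label kidney, epithelial-like was compared with marker rows. Of the kidney tubule list, mir-30a (median 9641 CPM), mir-192 (2515 CPM) and mir-194 (548 CPM) were present, and mir-204 stood at 27.1 CPM. The epithelial mir-200 group was low, with mir-141 at 111 CPM, mir-200c at 44.2 CPM, and mir-200a, mir-200b and mir-429 at 4.34, 1.34 and 0.78 CPM. Thus 3 of 4 tubule markers stood above every row of the mir-200 group. Markers of other tissues, mir-9 and mir-126 below, also exceeded mir-192 and mir-194. No reference tissue was measured, so whether the label is met was not tested. The neural row mir-9 stood at 5521 CPM, mir-124 was low but counted in 16 of 16 libraries (9.28 CPM), and mir-137 (0.43 CPM) lay under the 1.68 CPM that 3 counts give in the shallowest library. The endothelial row mir-126 stood at 4003 CPM. The 8 rows of the pluripotent stem cell list, mir-302 and mir-371 to mir-373 relatives, summed to a median of 0.41 CPM, and 4 of them were at 0 in all 16 libraries. Lists for striated muscle (median sum 33.9 CPM), squamous epithelium (52.7 CPM), erythroid cells (89.1 CPM) and fibroblasts with smooth muscle (333 CPM) were low. The white blood cell list (mir-142, mir-223, mir-150 and mir-155) summed to a median of 261 CPM, but reached 3586 CPM in 1 library of clone 30, described with that clone. The neuroendocrine list was carried by mir-7 (5456 CPM, against 122 CPM for mir-375). This median of mir-7 lies between 2 genotype levels, a mean share of 0.27% in wild-type and 1.11% in deletion clones. Hairpins that bypass the Microprocessor, led by mir-320a (806 CPM) and mir-484 (349 CPM), summed to 1209 CPM, and 1 of the 12 was at 0 in all 16 libraries.

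No row passed the test between the 2 control shRNAs. With the clone as a block, 0 of 571 tested rows passed the threshold of 0.05 on the Benjamini-Hochberg adjusted p of edgeR's quasi-likelihood test, a share called of 0%, and 48 (8.41%) had an unadjusted p under 0.05, 24 higher and 24 lower with control shRNA 2. DESeq2 called 1 of 571, mir-1301, which was higher with control shRNA 2. The sign was the same in all 8 clones for 17 rows (2.98% of those tested), 9 higher (1.58%) and 8 lower (1.4%). With no difference in any row, a share of about 0.05 would have an unadjusted p under 0.05. A share of about 0.00781 would have the same sign in all 8 clones. Both observed shares were larger, and the source of the excess was not tested. The median log2 fold change of all tested rows was 0.01, and 0.14 when libraries were scaled by spike-in RNA. In simulated data on 571 rows with this design, the test recovered 44% of 1.5-fold, 72% of 2-fold and 96% of 4-fold changes. There, 50 rows were changed at each of these folds, 50 at a smaller fold (12% recovered) and 371 were left unchanged. The adjusted threshold is easier to pass when many rows change, so recovery of a few changed rows may be lower and was not tested. With the clone as a block, the p-values of this contrast rest on how the vector difference varied from clone to clone. Since each clone gave 1 library per vector, that variation cannot be told apart from library noise.

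How small a difference could have been seen depended on the level. The 95% interval of the log2 fold change had a median half-width of 0.22 in the 20 rows with a mean of at least 10000 CPM, of 0.23 from 1000 to 10000 CPM and of 0.26 from 100 to 1000 CPM. It widened to 0.42 from 10 to 100 CPM and to 0.93 in the 218 rows under 10 CPM. For all 185 rows with a mean of at least 100 CPM the whole interval lay within a 2-fold change in either direction. Over all 571 rows this held for 392 (68.7%), and under 10 CPM for 51 of 218 (23.4%), so for most of these rare rows a 2-fold difference lay within the interval.

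**Figure D2:**
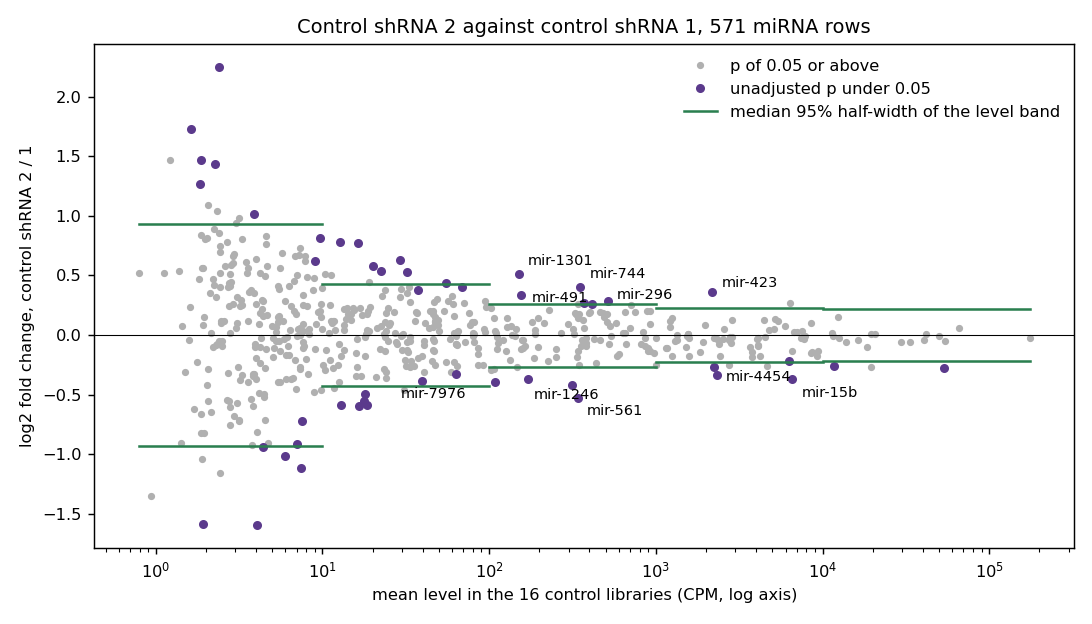
Log2 fold change of control shRNA 2 over control shRNA 1 (vertical axis) against the mean level in CPM (horizontal log axis) for 571 rows, with the 48 rows of unadjusted p under 0.05 in purple and green lines at the median 95% half-width in each band of levels. The cloud narrows from left to right, from a half-width of 0.93 under 10 CPM to 0.22 from 10000 CPM on.

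The abundant families lay close to 0 in this contrast. Of the 20 most abundant rows 0 were called, and 2 had an unadjusted p under 0.05. Their log2 fold changes ran from -0.28 (mir-19b) to 0.15 (mir-30d), with a median of -0.03 beside 0.01 over all rows tested. The row mir-16, the largest of all, had a log2 fold change of -0.03 ± 0.10 (SE) and a 95% interval of -0.24 to 0.19. At family level 0 of 438 passed (percent called 0, 52 or 11.9% at an unadjusted p under 0.05, DESeq2 5). The mir-15/mir-16/mir-195/mir-424/mir-497 family had a log2 fold change of -0.10 ± 0.08 (SE) and the mir-17/mir-20/mir-93/mir-106 family -0.08 ± 0.08 (SE). The mir-19 family, known for its MIR17HG members, deviated most among the first 12. Its share was 5.28 to 10.8% with control shRNA 1 and 3.86 to 9.99% with control shRNA 2, with overlapping groups, and its log2 fold change of -0.33 ± 0.12 (SE) had an adjusted p of 0.264 (edgeR quasi-likelihood test). The largest step was in clone 30, from 10.8% with control shRNA 1 to 5.89% with control shRNA 2. Clones 52, 55 and 43 went the other way, to 9.81, 9.99 and 8.68%.

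The 10 rows chosen for the smallest unadjusted p among those with a mean of at least 100 CPM, 5 in each direction, are given as values because 0 of them passed the adjusted threshold. The row mir-1301, whose hairpin lies in an intron of DNMT3A (chromosome 2, 25328640 to 25328721), ran from 100.5 CPM over a median of 121 to 189 CPM with control shRNA 1 and from 124 over 172 to 257 CPM with control shRNA 2. The 2 groups overlapped, but every clone was higher with control shRNA 2, by 0.30 to 0.72 on the log2 scale. The fit gave a log2 fold change of 0.51 with an SE of 0.12 and, by edgeR, an adjusted p of 0.232. It passed with DESeq2 (0.49, adjusted p = 0.00826) and among rows with a mean of at least 100 counts (0.52, adjusted p = 0.0418). The rows mir-744 (0.40), mir-296 (0.29) and mir-491 (0.33) were also higher in 8 of 8 clones, with adjusted p-values of 0.242, 0.295 and 0.3404 by edgeR. The row mir-423 was higher in 6 of 8 clones, at a median of 1769 CPM with control shRNA 1 and 2320 CPM with control shRNA 2 (log2 fold change 0.36). In the 4 deletion clones its difference was 0.55 to 0.85, and in the 4 wild-type clones -0.10 to 0.34, an interaction of 0.47 with an adjusted p of 0.530.

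On the lower side, mir-15b was lower with control shRNA 2 in 8 of 8 clones. This partner of mir-16 in the SMC4 intron (chromosome 3, 160404588 to 160404685) ran from 4463 over a median of 6677 to 12758 CPM with control shRNA 1 and from 3014 over 5430 to 10125 CPM with control shRNA 2. The within-clone step was 12758 to 6798 CPM in clone 52 but only 10596 to 10125 CPM in clone 67, and the fitted log2 fold change of -0.36 ± 0.11 (SE) did not pass (adjusted p = 0.242 by edgeR). The neighbouring mir-16 row, which pools MIR16-2 with MIR16-1, lay at -0.03. The row mir-561, in an intron of GULP1, had the widest difference (-0.53), and its steps in clones 30 and 34 were -1.54 and -1.09, against 0.38 in clone 52. The rows mir-4454 (-0.34), mir-1246 (-0.37) and mir-7976 (-0.39) were lower in 7, 8 and 7 of 8 clones. The reads of mir-1246 match a fragment of the spliceosomal U2 RNA, so that row may not count hairpin products.

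**Figure D3:**
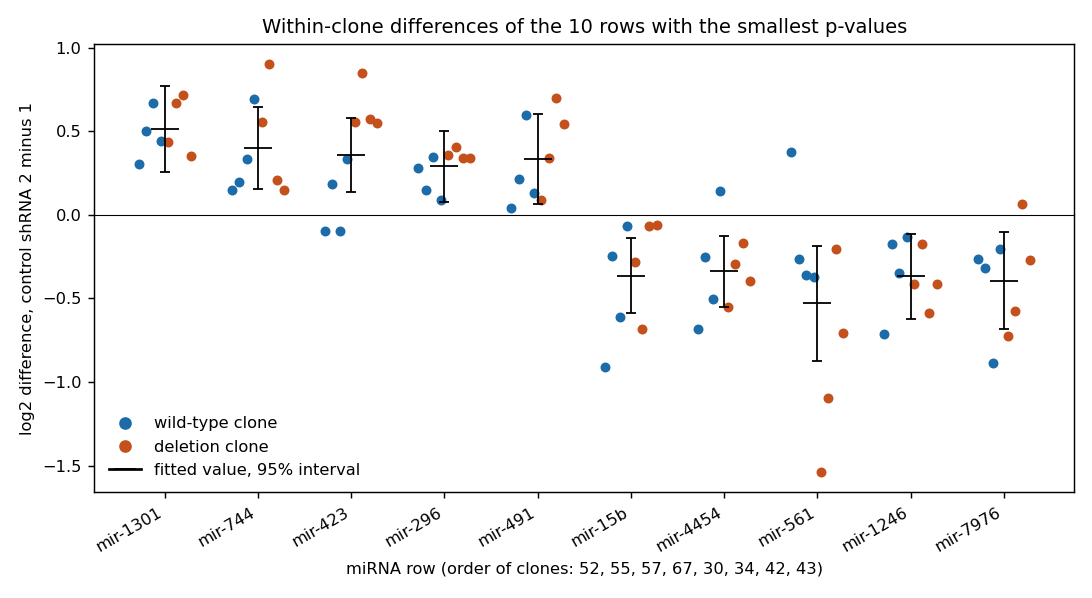
Log2 difference between control shRNA 2 and control shRNA 1 within each clone (vertical axis) for the 10 rows with the smallest unadjusted p at a mean of at least 100 CPM, 4 wild-type clones in blue and 4 deletion clones in orange, with the fitted value and its 95% interval in black. All 8 clones lie above 0 for mir-1301, mir-744, mir-296 and mir-491 and below 0 for mir-15b and mir-1246.

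The base composition of these rows was measured beside their direction. Hairpins of the 5 higher rows had a GC content of 51.2 to 62.2%, and those of the 4 lower rows with a RefSeq entry 33.3 to 45.4%, with a median of 50% over the 199 of 246 more abundant rows that matched. Within a clone, the rank correlation across these 199 rows between GC content and the difference of the 2 control libraries was -0.19, -0.10 and -0.12 in clones 52, 55 and 57. It was 0.39 in clone 67, 0.21 in clone 30, 0.20 in clone 34, 0.42 in clone 42 and 0.11 in clone 43. The part of base composition in these differences was not tested.

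Taken by genotype, 0 of 466 rows passed in wild-type clones (percent called 0, 23 or 4.94% at an unadjusted p under 0.05, DESeq2 0) and 0 of 548 in deletion clones (percent called 0, 71 or 13% at an unadjusted p under 0.05). In the deletion clones DESeq2 called 11 rows, 3 higher and 8 lower, and gave no adjusted p for 266 of the 548. Single clones moved these counts. Without clone 42 edgeR called 16 rows in the deletion clones, 10 higher and 6 lower, and without clone 67 it called 2 in the wild-type clones. The difference of the shRNA contrast between genotypes passed for 0 of 571 rows (percent called 0, 51 or 8.93% at an unadjusted p under 0.05, DESeq2 0), and for 6 rows without clone 67.

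Total miRNA content and evenness were compared as single values. The log2 ratio of miRNA to spike-in counts was 6.99 ± 0.39 (SD, n = 8) with control shRNA 1 and 7.08 ± 0.48 (SD, n = 8) with control shRNA 2. The difference was 0.10 ± 0.44 (SD) and positive in 5 of 8 clones. An exact two-sided permutation test that flips signs gave p = 0.547, or 0.820 after adjustment for 3 such tests. Leaving out 1 clone moved the difference between 0.0026 (without clone 57) and 0.20 (without clone 42). The 10 most abundant rows took 55.7 ± 2.33% (SD, n = 8) and 55.6 ± 1.81% (SD, n = 8) of miRNA counts (exact sign-flip permutation p = 0.859, higher in 4 of 8 clones). The 2 shRNAs against ERH, compared in the same way, gave 0 of 578 rows (percent called 0, 37 or 6.4% at an unadjusted p under 0.05, DESeq2 1). The root mean square log2 difference within a pair was 0.44 ± 0.11 (SD, n = 8) for the control pair and 0.40 ± 0.12 (SD, n = 8) for the ERH pair. It was higher for the ERH pair in 2 of 8 clones (exact sign-flip permutation, two-sided, p = 0.461, adjusted p = 0.820). With 8 clones the smallest p that this test can give is 0.00781.

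Clones differed more from each other than the 2 control libraries of a clone did. Spread was taken over the 246 rows with a mean of at least 100 counts. The SD between clone means of log2 CPM had a median of 0.36 in wild-type and 0.32 in deletion clones. The SD between the 2 control libraries of a clone had medians of 0.23 and 0.22. It was taken after removing the mean vector difference of the genotype, so a vector effect shared by the clones is not part of it. An edgeR F test across clones called 148 of 466 rows (31.8%) in the wild type and 103 of 548 (18.8%) in the deletion genotype. The 52 rows called in both made up 35.1% of the wild-type and 50.5% of the deletion calls. Leaving out clone 55 brought the wild-type count to 79. Without clone 34 or 43 the deletion count was 40 or 54, and without clone 42 it was 183.

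Among the 20 rows of at least 10000 CPM, 10 were called between wild-type and 4 between deletion clones. The mir-15/mir-16/mir-195/mir-424/mir-497 family was the steadiest of the first 12 in the wild type, with a coefficient of variation of 1.70% between 4 clones and shares of 19.1, 18.4, 18.9 and 18.7% in clones 52, 55, 57 and 67. The mir-19 family varied by 34.6%. It stood at 8.57 and 9.49% in clones 52 and 55 and at 5.30 and 4.57% in clones 57 and 67. The mir-101 family was likewise higher in clones 52 and 55 (2.07 and 2.60%) than in clones 57 and 67 (1.45 and 1.14%). The mir-10 family had the opposite order, 3.25 and 3.01% in clones 52 and 55 and 5.71 and 5.55% in clones 57 and 67. Their rows mir-19b, mir-101 and mir-10a had adjusted p-values of 0.00576, 0.00378 and 0.00161 (edgeR F test). In the deletion clones mir-218, hosted by introns of SLIT2 and SLIT3, varied most among the first 12 families. Its share was 3.62% in clone 30 and 1.11% in clone 34, with 1.90 and 1.87% in clones 42 and 43 (adjusted p = 0.000138 by edgeR).

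Rows with a mean of at least 100 CPM were ordered by their clone SD. In wild-type clones the widest were mir-3144 (SD 1.28, with the highest clone 6.83-fold above the lowest), mir-1277 (1.27), mir-1248 (1.27), mir-1287 (1.01), mir-708 (0.95), mir-651 (0.82), mir-1246 (0.80) and mir-129 (0.80). In deletion clones they were mir-34a (2.25, 33.6-fold), mir-142 (1.48, 13.4-fold), mir-122 (1.23), mir-3065 (0.85), mir-218 (0.84), mir-3144 (0.76), mir-192 (0.76) and mir-301a (0.75). The F tests of 3 of these rows rested on 1 clone: without clone 30 the adjusted p by edgeR was 0.730 for mir-192 and 0.978 for mir-301a, and without clone 57 it was 0.490 for mir-1287 in the wild type. The row mir-1248 lies in an exon of EIF4A2 and overlaps a small nucleolar RNA. It also varied between the 2 libraries of a deletion clone (SD 1.76, with the mean vector difference removed). Its F test did not pass in that genotype (adjusted p = 0.705 by edgeR). Rows were also ranked by the larger of the 2 SDs. The narrowest were mir-185, mir-23a, mir-1304, mir-30a, let-7e, mir-548h, mir-93 and mir-769, with an SD of at most 0.17 in each genotype. These SDs do not count a gap between genotypes. The clones of mir-1304 lay at 223 to 271 CPM in the wild type and 456 to 544 CPM in the deletion genotype. Those of mir-548h lay at 126 to 140 and 254 to 322 CPM. For mir-185 the 4 wild-type clones lay between 1946 and 2255 CPM and the 4 deletion clones between 1641 and 1846 CPM. The abundant mir-93, from an intron of MCM7 in the family of mir-17, lay between 56548 and 64898 CPM and between 34414 and 44036 CPM.

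Each clone was then set against the other 3 of its genotype over all 571 rows. The SE and p-values of these contrasts rest on the scatter of the 2 libraries of a clone, pooled over the 8 clones. They hold no spread between clones, so they do not measure how unusual a clone is among clones. Calls numbered 26 in clone 52 (4.55%), 75 in clone 55 (13.1%), 66 in clone 57 (11.6%) and 43 in clone 67 (7.53%), and 64 in clone 30 (11.2%), 20 in clone 34 (3.5%), 33 in clone 42 (5.78%) and 50 in clone 43 (8.76%). Higher and lower calls were 14 and 12 in clone 52, 57 and 18 in clone 55, 34 and 32 in clone 57, and 17 and 26 in clone 67. In the deletion clones they were 37 and 27 in clone 30, 11 and 9 in clone 34, 24 and 9 in clone 42, and 23 and 27 in clone 43. This balance rested on the scaling. With spike-in scaling it was 4 and 1 in clone 52, 99 and 1 in clone 55, 17 and 38 in clone 57, 3 and 12 in clone 67, 126 and 1 in clone 30, and 0 and 41 in clone 42. With total miRNA scaling it was 16 and 9 in clone 52, 28 and 54 in clone 57, 49 and 24 in clone 67, 35 and 45 in clone 30, and 40 and 7 in clone 34. DESeq2 with its size factors gave 54 and 38 in clone 55, 9 and 25 in clone 34, and 28 and 20 in clone 42. The log2 ratio of miRNA to spike-in counts was 7.71 in clone 30, 7.44 in clone 55 and 6.49 in clone 42. It was 6.80 to 7.01 in the other 5. Spike-in scaling uses this ratio, so a clone with a high ratio gains higher calls by construction. Total miRNA scaling does not use the spike-in counts, and what shifted its calls was not tested. Directions below are on the TMM scale.

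Among the rows with a mean of at least 100 CPM that were chosen by size, mir-34a in clone 34 differed most. This miRNA, transcribed from MIR34AHG (chromosome 1, 9151668 to 9151777), is a classic p53 target that restrains proliferation.
miR-34a-5p: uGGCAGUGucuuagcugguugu
miR-449a: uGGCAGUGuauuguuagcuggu
Clone 34 had 158 and 154 CPM of mir-34a with control shRNA 1 and 2, while the other 3 deletion clones averaged 1978, 3272 and 5248 CPM. The 4 wild-type clones averaged 2901 to 6154 CPM. No library of another clone came near these levels, and the log2 difference from the other deletion clones was -4.27 ± 0.25 (SE, adjusted p = 3.46e-11 by edgeR). The ERH shRNA libraries of clone 34 repeated it at 147 and 174 CPM (log2 difference -4.03). Of the relatives, mir-449a, which has the same seed, stood at 106 and 79.7 CPM in clone 34, within the range of the other clones (30.0 to 193 CPM), and was not called there (0.75, adjusted p = 0.161 by edgeR). The row mir-34c was at 10.1 and 8.69 CPM (adjusted p = 0.301). The calls of mir-34a as higher in clones 30 (2.27) and 43 (1.44) are relative to a mean that includes clone 34. Without it clone 43 no longer differed beyond the threshold (0.11, adjusted p = 0.784 by edgeR), and clone 30 stood at 0.97.

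In clone 30 the row of mir-142, a hairpin of blood cells, was called higher.
miR-142-3p: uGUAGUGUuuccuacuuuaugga
miR-223-3p: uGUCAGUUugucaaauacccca
miR-155-5p: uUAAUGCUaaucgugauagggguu
The row mir-142 stood at 777 and 2945 CPM with control shRNA 1 and 2 in clone 30. The other deletion clones averaged 138, 297 and 650 CPM, and the 4 wild-type clones 169 to 329 CPM. The libraries overlapped, since clone 34 had 781 CPM with control shRNA 2. The log2 difference was 2.46 ± 0.29 (SE, adjusted p = 1.85e-06 by edgeR). Of the other white blood cell rows, mir-223, abundant in myeloid cells, stood at 73.4 and 369 CPM (2.87 ± 0.38, adjusted p = 1.13e-05 by edgeR). The row mir-155 of activated lymphocytes stood at 6.12 and 32.1 CPM (2.40, adjusted p = 0.0143 by edgeR). Clone 34 overlapped in these rows too, with 92.2 CPM of mir-223 and 6.89 CPM of mir-155 with control shRNA 2. The fourth marker, the lymphocyte row mir-150, was at 9.94 and 1.37 CPM, lower with control shRNA 2, and had too few counts to enter the test. Of the 4 markers, none was at 0 in clone 30, and 3 were higher with control shRNA 2 than with control shRNA 1. The erythroid row mir-486 stood at 40.9 and 38.2 CPM in clone 30 and at 62.5 to 214 CPM in the other deletion clones. The erythroid row mir-451a stood at 6.12 and 8.54 CPM, within their range of 2.26 to 35.2 CPM. The part of RNA from blood cells in this difference was not tested. In the ERH shRNA libraries of the clone mir-142 stood at 863 and 1289 CPM and mir-223 at 104 and 133 CPM. Clone 30 also had more mir-301a (2022 and 1246 CPM, against means of 562 to 589 CPM in the others, log2 difference 1.39, adjusted p = 0.000580).

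Among wild-type clones, clone 55 was high in mir-1277, mir-708 and mir-187. The row mir-1277, in an intron of WDR44 (chromosome X, 118386394 to 118386471), stood at 2769 and 3452 CPM against means of 462, 505 and 886 CPM in clones 57, 67 and 52 (log2 difference 2.48 ± 0.22 SE, adjusted p = 4.47e-08 by edgeR). Likewise, mir-708 stood at 2820 and 2977 CPM against means of 707, 778 and 1528 CPM (1.69 ± 0.15 SE). Neither row overlapped between clone 55 and any other clone, deletion clones included. In the ERH shRNA libraries both log2 differences were 1.91. Clone 67 was low in mir-3144, at 44.9 and 75.8 CPM against means of 189 to 412 CPM (-2.41 ± 0.25 SE, adjusted p = 5.10e-07 by edgeR). In clone 57 mir-1287, in PYROXD2 on chromosome 10, stood at 33.6 and 29.2 CPM against means of 114 to 144 CPM (-2.01 ± 0.25 SE, adjusted p = 1.06e-05).

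**Figure D4:**
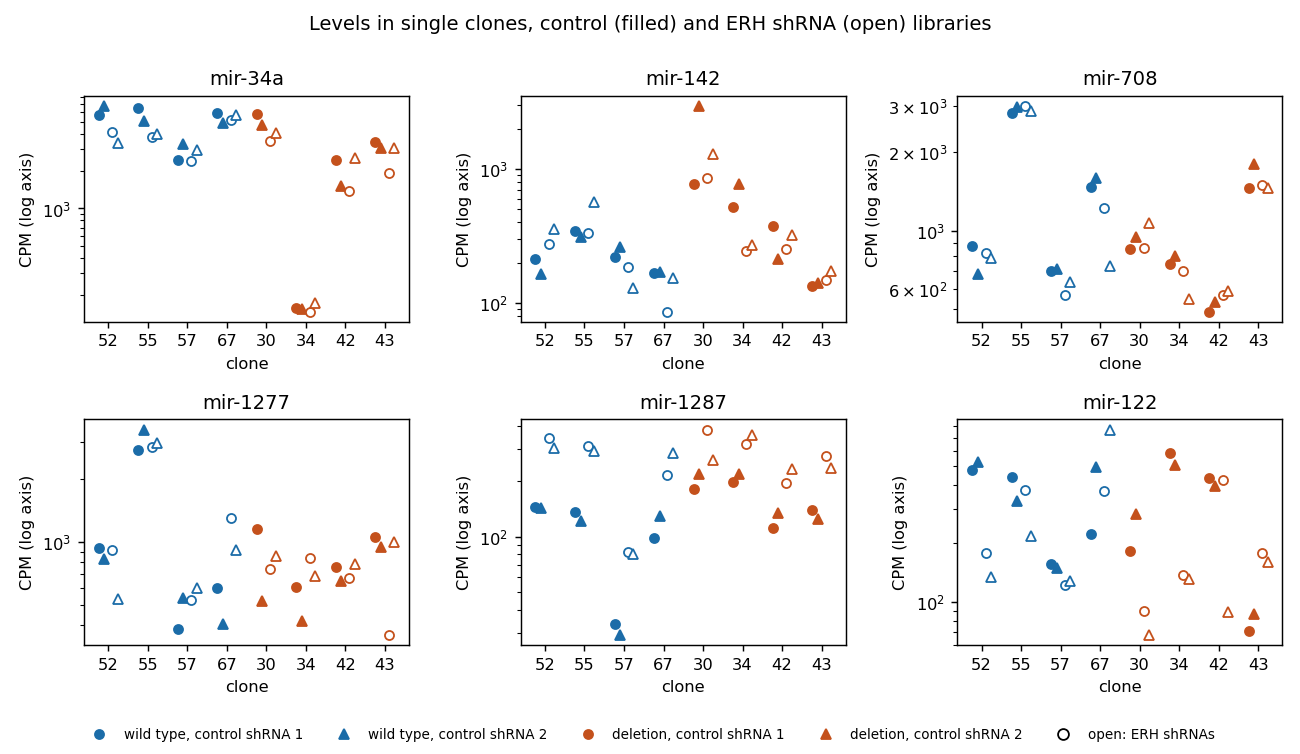
CPM on a log axis by clone for mir-34a, mir-142, mir-708, mir-1277, mir-1287 and mir-122, with wild-type clones in blue and deletion clones in orange, circles for the first and triangles for the second shRNA, filled for control and open for ERH shRNA libraries. The mir-34a libraries of clone 34 lie at 147 to 174 CPM in both kinds of library, while mir-122 in clone 34 lies at 508 and 583 CPM in control and at 132 and 138 CPM in ERH shRNA libraries.

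Chromosome X stood out in clone 57, a feature picked after its values were seen. Of 42 tested rows with all loci there, 13 were lower and 6 higher in clone 57 than in the other wild-type clones, or 19 of 42 beside 66 of 571 (11.6%) overall. In map order the lower rows began with 6 from the CLCN5 region (mir-532, mir-188, mir-500a, mir-362, mir-500b and mir-660, positions 50003148 to 50013337), went on with mir-676, mir-421, mir-374b and mir-374a, and ended with mir-1277, mir-450a and mir-424. Their log2 differences lay between -0.74 and -1.37. In the ERH shRNA libraries mir-450a (-0.18, adjusted p = 0.716 by edgeR) and mir-424 (-0.46, adjusted p = 0.178) were not called. The other lower rows were called lower again. The row mir-660 stood at 1288 and 1338 CPM in clone 57 and at 2306 to 3645 CPM in the other wild-type control libraries, with no overlap. Its neighbour mir-532 stood at 1263 and 1065 CPM against 2221 to 2768 CPM.

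The X-linked rows that were higher in clone 57 were mir-105, mir-767, mir-504, mir-224, mir-891a and mir-892a, all distal to the lower ones. Of these, mir-504, mir-224, mir-891a and mir-892a were rare, with means of 2.62 to 7.41 CPM over the 16 control libraries. They were called higher again in the ERH shRNA libraries. The hairpins of mir-105 and mir-767 lie together in an intron of GABRA3 (positions 152392219 to 152394492), a locus known from testis and from tumours.
miR-767-5p: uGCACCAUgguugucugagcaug
miR-105-5p: uCAAAUGCucagacuccuguggu
The row mir-767 stood at 275 and 210 CPM in clone 57 with control shRNA 1 and 2 and at 201 and 190 CPM with the ERH shRNAs. In the other wild-type control libraries it was between 0 and 2.79 CPM, and in the deletion clones at most 5.48 CPM. This put clone 57 above the others by 7.66 ± 0.40 (SE) on the log2 scale (edgeR, adjusted p = 4.82e-12). Its neighbour mir-105 stood at 199 and 184 CPM in clone 57 and at no more than 1.12 CPM in the other wild-type control libraries (adjusted p = 4.82e-12). For both rows the fitted size depends on few counts in the other clones. In clone 55, 8 of the 42 X-linked rows were higher and 0 lower (75 of 571, or 13.1%, called overall), among them mir-1277, mir-374a (log2 difference 1.00) and mir-660 (0.68). This contrast is against a mean that includes clone 57. Of the 8 rows, 2 (mir-504 and mir-224) were also higher in clone 57, and 4 (mir-374b, mir-374a, mir-1277 and mir-504) were called higher again in the ERH shRNA libraries.

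Most clone calls kept their direction in the 16 ERH shRNA libraries, which share the clones but no library with the controls. Of 374 calls that could be tested there, 350 (93.6%) had the same direction, and 194 were called in the same direction in both, 51.5% of the 377 control calls and 42.5% of the 457 calls in ERH shRNA libraries. There the share called was 12.8% in clones 52 and 57, 9.17% in clone 55, 16.3% in clone 67, 6.23% in clone 30, 6.4% in clone 34, 5.02% in clone 42 and 10.4% in clone 43. By clone, the share of control calls called again ran from 42.7% in clone 55 to 66% in clone 43. In clone 67, 32 of 42 had the same direction. Of the calls in ERH shRNA libraries, 16.2% in clone 52, 20.2% in clone 67 and 88.9% in clone 30 were shared. The share of the same direction over all tested rows was not taken. Contrasts within a genotype share clones, so calls and entries are not independent. Of the 48 entries chosen by size in the 8 clones, 45 had the same direction and 31 were called again. The 3 others were mir-122 in clones 34 and 43 and mir-1277 in clone 67. For the liver miRNA mir-122, clone 34 held 583 and 508 CPM and clone 43 held 71.0 and 86.4 CPM in control libraries, log2 differences of 1.59 and -2.30. With the ERH shRNAs they held 138 and 132 CPM and 179 and 160 CPM, log2 differences of -0.12 and 0.32 that did not pass (adjusted p of 0.917 and 0.673 by edgeR). The call of mir-122 in clone 34 was also lost without clone 43 (0.93, adjusted p = 0.0530).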

How the data were processed

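The authors deposited read counts per miRNA hairpin name and for 4 spike-in RNAs, 1 column per library, called total read counts of precursors per the file header. Total RNA (400 ng) was mixed with the spike-ins and 100 ng went into a QIAGEN QIAseq miRNA library, per the labels' protocols. The submitters' processing notes name SAMtools. Aligner, annotation, build and use of molecular identifiers are not given in the sources used here. Loci of 1 name share a row, and mir-365a/mir-365b and mir-1268a/mir-1268b had nearly equal counts and are uncertain.

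The test of counts was that of edgeR 4.0.16 under R 4.3.3 (filterByExpr, TMM, quasi-likelihood, Benjamini-Hochberg, threshold 0.05), with DESeq2 1.42.0 as an alternative. Shares and marker levels are CPM of miRNA counts, other CPM values are TMM-scaled, and log2 levels have a prior count of 2. The labels give each clone both control vectors, so the clone was the block. As a check, the deviations of a clone's 2 control libraries from their group means correlated at 0.41 to 0.84 across 246 rows. Names follow a rule: the 20 rows and 12 families of highest median share, 5 rows per direction for the shRNAs, 8 rows by widest and narrowest clone SD, and 3 rows per direction and clone. The members, lists and rules were chosen with earlier results of these data known. The repeat of the clone contrasts in ERH shRNA libraries, and the chromosome X rows, were added after seeing the data. RefSeq hairpins (GRCh38.p14) matched 1239 of 1513 rows, and hosts come from GENCODE release 29. The test was checked on simulated data.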

Additional observations from a re-analysis of the deposited data

Results flagged for a closer look

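In groups of 4 control libraries (1 genotype and 1 vector), 49 values were screened in 196 groups for a library far from the other 3. This picked out 10 of the 196 groups, about the share that chance picks (1 in 20). The rows mir-218 and mir-221 were each picked again as part of their family. In deletion clones with control shRNA 1, clone 30 had a log2 ratio of miRNA to spike-in counts of 7.78, while the others lay between 6.80 and 6.92. In the same group clone 42 had 4.88% of the mir-221/mir-222 family (others 2.31 to 2.59%) and 4.15% of the row mir-221 (others 2.00 to 2.26%), and clone 43 had 6848 CPM of the neuroendocrine list (others 11605 to 12226 CPM). In deletion clones with control shRNA 2, clone 43 had 7.64% of mir-20a (others 4.09 to 4.25%), and clone 34 had 139 CPM of the striated muscle list (others 29.8 to 41.7 CPM). In wild-type clones with control shRNA 2, clone 57 had 3.39% of mir-218, row and family alike (others 1.61 to 1.88%). In wild-type clones with control shRNA 1, clone 67 had 172139 CPM of the MIR17HG list (others 223778 to 226733 CPM), and clone 55 had 140 CPM of the striated muscle list (others 12.3 to 32.2 CPM). Their causes were not tested.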

How the results depend on the processing

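The call of 0 rows for control shRNA 2 against 1 in all clones held in every leave-one-out fit and became 1 with DESeq2 and 1 among rows with a mean of at least 100 counts. Without the replicate block it stayed at 0 in all clones, in either genotype, for families and for the ERH pair. DESeq2 gave 11 rows in deletion clones, 5 families and 1 row for the ERH pair. Without a filter 4 rows were called in deletion clones and 3 for the ERH pair, and total miRNA scaling gave 1 for that pair. Leaving out 1 clone gave 0 to 2 in wild-type clones, 0 to 16 in deletion clones, 0 to 6 for the interaction, 0 to 1 for families and 0 to 1 for the ERH pair. The difference in the share of the 10 most abundant rows changed sign, from -0.08 to a range of -0.35 to 0.22 percentage points. For the F tests, leaving out 1 clone gave 79 to 152 calls in the wild type and 40 to 183 in deletion clones, where spike-in scaling gave 180 and a fit without the vector 60. With spike-in scaling, calls were 5 in clone 52, 15 in clone 67, 127 in clone 30, 10 in clone 34 and 21 in clone 43. DESeq2 gave 74 in clone 67 and 34 in clone 34, total miRNA scaling 73 and 47, and no filter 43 in clone 52, 71 in clone 67 and 34 in clone 34, which had 10 at a mean of at least 100 counts. Leaving out 1 clone gave 13 to 39 calls in clone 52, 30 to 106 in clone 55, 16 to 74 in clone 67, 15 to 39 in clone 34 and 19 to 40 in clone 42. The median clone SD was 0.41 (wild type) and 0.42 (deletion) from control shRNA 2 alone, 0.26 and 0.28 at a mean of at least 1000 counts, and 0.46 and 0.52 with spike-in scaling. Leaving out 1 clone gave 0.30 to 0.37 and 0.26 to 0.32. Grouping by number only made mir-16 the first family, at 17.1%. Among named rows, directions held under all alternatives. In the clone contrasts the call of a named row was lost in 42 refits and held in 534. The causes were not tested.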
